A study of Mus musculus with 4 samples.

Results

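The genes described here encode the small ubiquitin-like modifier ISG15, the enzymes that attach it to proteins and the protease that removes it. The 6 genes are Isg15, Uba7, Ube2l6, Herc6, Trim25 and Usp18, out of 48897 genes in the deposited table. They were selected on the measured values themselves, the counts of the left-eye and right-eye libraries, so their differences between the groups are given as a description with no test. All 6 passed the filter on low counts, as did 17766 genes in all.

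The study asked which messenger RNAs of the developing mouse retina change when miR-124-3p, a microRNA abundant in neurons, is knocked down. C57BL/6 mice of unmodified genotype were injected into the vitreous at postnatal day 3, and whole retinas were collected at postnatal day 9. Each left eye received 0.6 nmol of a miR-124-3p antagomir, a chemically modified antisense oligonucleotide, in 1 μl (the anti-miR-124 group), and each right eye received the same amount of a scrambled antagomir (the NC group). There were 2 libraries in each group, each made from pooled retinas, and each group drew on more than 1 litter. The labels list them as separate replicates, and the paper's account of its expression differences speaks of 2 biological replicates. Its account of the injections can be read as describing a single pool of retinas per group. It is therefore not settled that the SDs, SEs and p-values given here measure the spread between independent pools. The libraries of a group were not copies of each other. Lens genes made up 2.02% of the counts in 1 NC library and 0.0042% in the other. A list of 13 reactive gliosis genes summed to 2025 and 7349 counts in the 2 anti-miR-124 libraries. Both groups were injected, so neither shows an untouched retina, and left against right eye cannot be told apart from antagomir against scrambled control.

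The 4 libraries held 16317239 to 18726963 counts. The column names pair a left-eye with a right-eye library by a shared number, and these pairs are called A and B below, so the libraries are NC A, NC B, anti A and anti B. The retinal identity of the tissue was visible in its defining genes, since all 18 markers of retinal neurons and Müller glia passed the filter, with a median log2 fold change of 0.01. NC A stood apart because lens genes made up 6.53% of its TPM (counts corrected for gene length, then for depth) against 0.0148% to 0.0201% in the others. Leaving the lens genes out before scaling gave a median log2 fold change over the 6 genes of 1.85, against 1.84 with them.

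ISG15 is made after interferon signalling and is joined to lysines of target proteins, a reaction called ISGylation that is best known from antiviral defence. It follows the order of the ubiquitin pathway: an activating enzyme (E1, UBA7) charges the modifier, a conjugating enzyme (E2, UBE2L6, also called UbcH8) carries it, and a ligase (E3) passes it to the substrate. In mice HERC6 is the main ISG15 ligase, and TRIM25, better known as a ubiquitin ligase of the RIG-I pathway, has also been reported to act as one. USP18 removes ISG15 from proteins and, apart from its protease activity, binds the interferon receptor subunit IFNAR2 and damps signalling. The 6 genes are known as interferon-stimulated genes, a class commonly switched on by the transcription factor complex ISGF3.

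Promoter sequences from RefSeq (GRCm38.p6) were matched for 5 of the 6 genes, by symbol. The 150 bases before the gene start are shown for the 3 genes with a match to the interferon-type motifs searched, 5′ to 3′ on the gene's own strand, with the matched bases in capitals.
Isg15, chr4:156200819-156200968, minus strand: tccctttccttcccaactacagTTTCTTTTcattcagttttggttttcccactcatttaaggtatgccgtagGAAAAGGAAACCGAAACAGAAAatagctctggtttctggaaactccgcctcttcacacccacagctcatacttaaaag
Uba7, chr9:107975417-107975566, plus strand: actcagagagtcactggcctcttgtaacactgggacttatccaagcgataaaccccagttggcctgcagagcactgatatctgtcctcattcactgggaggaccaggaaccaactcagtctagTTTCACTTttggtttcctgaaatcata
Trim25, chr11:88999253-88999402, plus strand: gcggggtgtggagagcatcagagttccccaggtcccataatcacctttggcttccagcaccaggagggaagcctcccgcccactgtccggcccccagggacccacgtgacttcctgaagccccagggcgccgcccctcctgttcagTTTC

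The core of the interferon-stimulated response element, searched as GAAANNGAAA on both strands, occurred in 3.44% of 32851 promoters (250 bases before to 50 after the start). Among the 5 genes it occurred in Isg15, which carried 3 overlapping copies within the run of capitals that ends 57 bases before its start. A shorter IRF core, AANNGAAA, overlaps this motif and was chosen after the promoters had been read. It occurred in 23.9% of promoters and in Isg15, Uba7 and Trim25, where it lay on the opposite strand in the latter pair and, in Trim25, ran past the gene start, so that only its first bases are shown. The GAS core TTCNNNGAA, the element of the interferon gamma response, occurred in 8.30% of promoters and in 0 of the 5. With the window limited to 200 bases before the start, the shares were 2.27%, 17.0% and 5.49%, and the numbers of the 5 genes with a match were 1, 2 and 0. A match is a description of the letters, and the absence of one says only that these letters were not in this window.

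**Figure D1:**
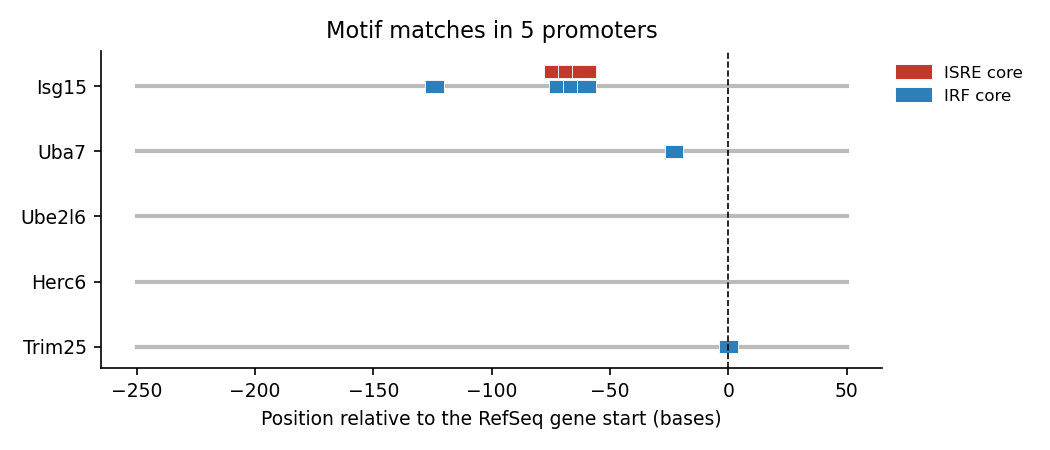
Positions of matches to the ISRE core (red) and the overlapping IRF core (blue) in the promoters of 5 genes of the ISG15 system, in bases relative to the RefSeq gene start (dashed line). Isg15 held 3 overlapping ISRE cores, Uba7 and Trim25 held an IRF core each, and Ube2l6 and Herc6 held neither in this window.

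In the counts, each of the 6 genes was higher in anti A than in NC A, and higher in anti B than in NC B. Over all genes tested 22.8% were higher in both pairs and 24.0% were lower in both. In each of the 6 genes both anti-miR-124 libraries also lay above both NC libraries, which was so for 16.5% of all genes tested. Because the genes were picked on this contrast, nothing is read from these counts. The size of the difference was unequal: the fitted log2 fold change ran from 0.70 in Trim25 to 4.40 in Usp18, with a median of 1.84, while the median over all genes tested was 0.0007. In bulk tissue a higher level can come from more cells that make a transcript or from more transcript per cell, and these cannot be told apart here.

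Isg15 (chr4:156199424-156200818, minus strand, 2 exons) encodes the modifier. It had 6 and 7 counts in NC A and NC B, against 29 and 79 in anti A and anti B. The NC libraries were both near the lower end of what can be counted, and the groups did not overlap. The ratio of CPM (counts scaled to the library size) was 4.56 in pair A, with a 95% exact binomial interval of 1.86 to 13.4, and 10.8 in pair B (5.01 to 27.8). Here and below these intervals cover counting error only. The fitted log2 fold change was 2.94 ± 0.57 (SE, n = 2 libraries in each group), which placed Isg15 at rank 24 of the 17766 genes from the highest.

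The study measured Isg15 by RT-qPCR with its own primers, and their positions show which part of the transcript they read. The primers are written in capitals throughout.
Isg15 forward, chr4:156200002-156200022: GGTGTCCGTGACTAACTCCAT
Isg15 reverse, chr4:156199892-156199912: TGGAAAGGGTAAGACCGTCCT
Both lie in the coding sequence of exon 2 and span 131 bases of the 756-base transcript (GRCm38, GENCODE). The RT-qPCR values were not analysed here. Isg15 shares 776 bases with LOC108168990, a gene of the opposite strand with 47 and 51 counts in NC A and NC B, and 41 and 100 in anti A and anti B. The library kit keeps strand, but whether the counting used it is not given in the sources used here, so reads of the shared stretch could belong to either gene. Herc6 and Usp18 also overlap opposite-strand genes, which had few or no counts.

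Uba7 (chr9:107975567-107984056, plus strand) encodes the E1 that activates ISG15. Its counts were 5 and 6 in the NC libraries and 23 and 49 in anti A and anti B. The groups did not overlap, and the lowest anti-miR-124 library stood 4.05-fold above the highest NC library in CPM. The ratio was 4.34 in pair A (95% interval 1.61 to 14.6) and 7.82 in pair B (3.35 to 22.4), and the fitted log2 fold change was 2.60 ± 0.51 (SE, n = 2 in each group).

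The E2 gene Ube2l6 (chr2:84798828-84810003, plus strand) had 35 and 48 counts in NC A and NC B, and 84 and 93 in anti A and anti B. It was the most even of the 6 genes within the anti-miR-124 group: pair B stood at 1.00 times pair A there (95% counting interval 0.738 to 1.36). The ratio of anti-miR-124 to NC was 2.26 in pair A (1.51 to 3.46) and 1.86 in pair B (1.30 to 2.69), with a fitted log2 fold change of 1.02 ± 0.25.

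Herc6 (chr6:57580992-57665136, plus strand) encodes the ligase. It had 35 and 31 counts in NC A and NC B, and 39 and 112 in anti A and anti B. Only anti B stood clear of the rest. The ratio was 1.05 in pair A, with a 95% counting interval of 0.649 to 1.71, and 3.46 in pair B (2.31 to 5.33). Its fitted log2 fold change of 1.09 ± 0.48 therefore rested on 1 library, and was 0.24 without anti B.

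Trim25 (chr11:88999398-89020293, plus strand), the other ligase, was by far the most highly counted of the 6 genes. The NC libraries had 566 and 613 counts and the anti-miR-124 libraries 739 and 1299. The groups did not overlap, with a ratio of 1.23 in pair A (95% counting interval 1.10 to 1.38) and 2.03 in pair B (1.84 to 2.24). The fitted log2 fold change was 0.70 ± 0.20, and 0.33 without anti B.

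Usp18 (chr6:121245906-121270917, plus strand), the gene of the ISG15 protease, differed most. It had 3 and 13 counts in NC A and NC B, and 111 and 253 in anti A and anti B. The lowest anti-miR-124 library was 9.03-fold above the highest NC library in CPM. The ratio was 34.9 in pair A, with a wide interval of 11.6 to 172 because of the 3 counts beneath it, and 18.6 in pair B (10.7 to 35.5). At a log2 fold change of 4.40 ± 0.59, Usp18 was at rank 6 of all genes tested. The estimate rose to 5.69 without NC B, which had the larger of the NC counts.

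**Figure D2:**
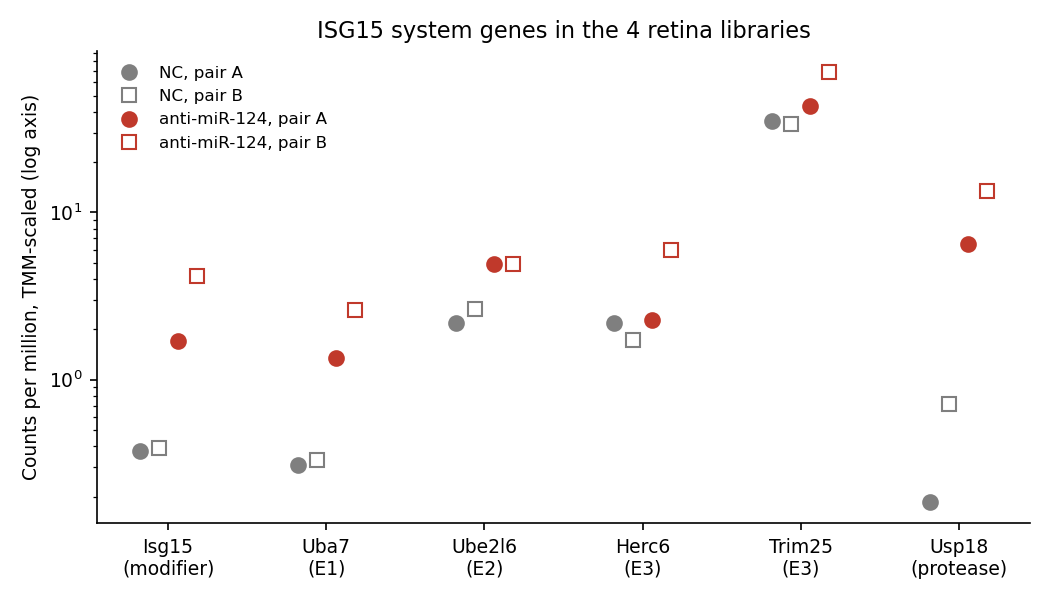
TMM-scaled CPM (log axis) of the 6 genes in the 2 NC libraries (grey) and the 2 anti-miR-124 libraries (red), with pair A as filled circles and pair B as open squares. Both red points lie above both grey points for every gene, narrowly for Herc6, whose pair A points are almost level.

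The 6 genes also differed in how they behaved between the anti-miR-124 libraries. Pair B was above pair A by 2.60-fold in Herc6, 2.47-fold in Isg15, 2.06-fold in Usp18, 1.93-fold in Uba7 and 1.59-fold in Trim25, each with a counting interval above 1. Ube2l6 was the exception, as given above. Between the NC libraries only Usp18 had an interval above 1, at 3.87-fold (1.06 to 21.2), from 3 and 13 counts. The ratio of anti-miR-124 to NC was larger in pair B for 4 of the 6 genes and larger in pair A for Ube2l6 and Usp18. The median log2 ratio over the 6 was 1.65 in pair A and 2.38 in pair B, against -0.009 and 0.003 over all genes tested. The medians over all genes were computed with a prior count of 2 added, and the ratios of the 6 without one.

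**Figure D3:**
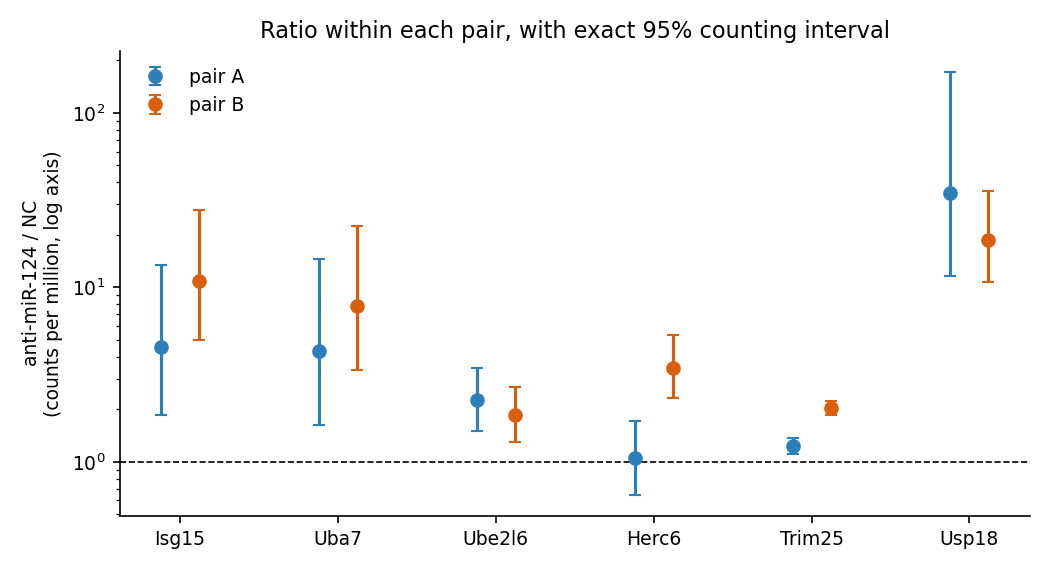
Ratio of anti-miR-124 to NC CPM (log axis) for the 6 genes within pair A (blue) and pair B (orange), with the exact 95% interval of the count ratio as bars, which covers counting error only. The dashed line marks equal levels. The ratios run from 1.05 in Herc6 (pair A) to 34.9 in Usp18 (pair A), as a description of genes chosen on these counts.

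Levels can be compared between genes only per length, so TPM is used for that. In the NC libraries Trim25 stood at 19.7 ± 0.784 TPM (SD, n = 2) and Ube2l6 at 5.56 ± 1.14. Isg15 at 1.60 ± 0.148, Herc6 at 1.17 ± 0.119 and Usp18 at 0.835 ± 0.730 were close together, and the libraries of Usp18, at 0.319 and 1.35 TPM, spanned those of Herc6. Uba7 was lowest, at 0.324 ± 0.036 TPM, which overlapped the lower Usp18 library.

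In the anti-miR-124 libraries Trim25 was still first at 33.2 ± 11.0 TPM (SD, n = 2), with Usp18 next at 18.6 ± 9.28. The 25.4 TPM of Trim25 in pair A was level with the 25.1 TPM of Usp18 in pair B, but within each library Trim25 was the higher. Isg15 followed at 12.9 ± 7.80 and Ube2l6 at 11.7 ± 0.138, and the ranges of Usp18, Isg15 and Ube2l6 gave no separate order: Usp18 had 12.0 and 25.1 TPM, Isg15 7.35 and 18.4, and Ube2l6 11.6 and 11.8. Herc6 at 2.57 ± 1.64 and Uba7 at 2.06 ± 0.942 overlapped at the bottom.

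Summed over the 6 genes the level was 27.3 and 31.1 TPM in NC A and NC B, and 59.2 and 103 TPM in the anti-miR-124 libraries. The make-up of this sum differed too. Trim25 gave 70.2% and 65.1% of it in NC A and NC B, and 43.0% and 39.9% in anti A and anti B. Usp18 gave 1.17% and 4.34% in NC A and NC B, and 20.3% and 24.4% in anti A and anti B. The ratio of protease to modifier transcript, Usp18 over Isg15 in TPM, was 0.213 in NC A and 0.793 in NC B. In anti A and anti B it was 1.63 and 1.37. The NC ratios rest on 3 and 13 counts of Usp18 and 6 and 7 of Isg15. In NC B Usp18 had more counts than Isg15 and was lower only per length. No interval was computed for these ratios, so no order of the pair in the NC libraries is read from them. Modifier to E1, Isg15 over Uba7, was 4.88 to 5.27 in 3 libraries and 6.74 in anti B. Its NC values rest on 6 and 7 counts of Isg15 and 5 and 6 of Uba7. Without an interval, neither a constant ratio nor a departure in anti B is read from these values.

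Relatives that serve other modifiers were chosen for 5 of the 6 genes (none for Trim25), and these were far more abundant. Ubb, a ubiquitin gene, stood at 1576 to 1699 TPM in the 4 libraries, and Nedd8, the modifier of cullins, at 257 to 269 TPM. Uba1, the main ubiquitin E1, was at 327 to 394 TPM, which was 1096 and 1094 times Uba7 in NC A and NC B and 283 and 142 times in the anti-miR-124 libraries. Uba6, the second ubiquitin E1, was at 25.3 to 31.3 TPM. Ube2l3, the ubiquitin E2 closest to Ube2l6, was at 143 to 162 TPM and 13.6 to 30.0 times Ube2l6. Herc3 had 105 to 117 TPM and Herc4 38.1 to 45.4 TPM, each above Herc6 in every library. Usp14, a deubiquitinase of the proteasome, was 210 and 55.3 times Usp18 in the NC libraries and 6.35 and 2.72 times in the anti-miR-124 libraries. Usp14 is also among the reported further ISG15 enzymes listed below.

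**Figure D4:**
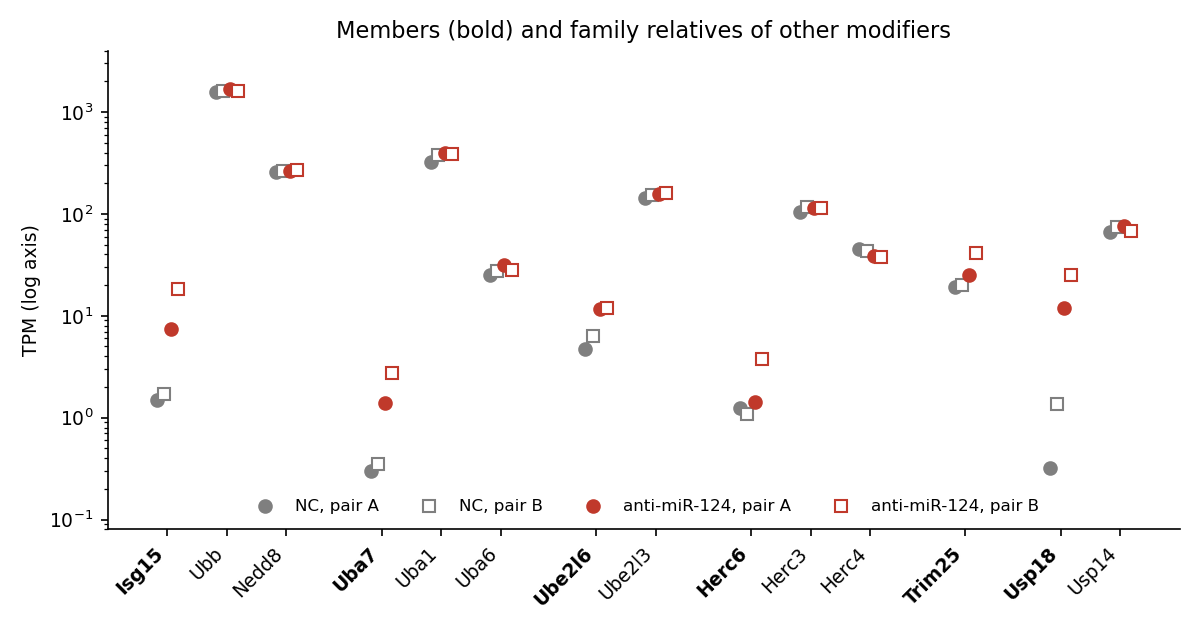
TPM (log axis) of the 6 genes (bold names) and of relatives that serve ubiquitin or NEDD8, in the 4 libraries, coloured by group and shaped by pair. The relatives overlie one another across libraries, and every relative shown lies above its ISG15 counterpart in every library, most narrowly Usp14 above Usp18.

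The enzymes of the other modifiers were measured in 5 lists. By edgeR's quasi-likelihood test over all genes, 0% of genes passed an adjusted p of 0.05 (0 of 17766), while 2.23% had an unadjusted p under 0.05 and lay above the NC group and 1.68% below it, 694 in all. DESeq2 called 36 genes. Of 63 listed genes 62 were tested, and their log2 fold changes lay between -0.27 and 0.18 with a median of 0.00. At an unadjusted p under 0.05 none was higher and 1 was lower, Herc4 at -0.27 ± 0.09 (SE, n = 2 in each group, edgeR unadjusted p = 0.0216, adjusted p = 0.989). Both anti-miR-124 libraries were above both NC libraries in 8 of the 62 (12.9%).

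Among the single lists, the free modifiers (12 of 13 tested) had a median log2 fold change of -0.01 and reached 0.17 in Urm1, with Ubd, which encodes the interferon-responsive modifier FAT10, at 0 counts in every library. The 9 E1 genes had a median of 0.00, from Uba3, the catalytic NEDD8 E1 subunit, at -0.11 to Mocs3 at 0.18. The 17 E2 genes had a median of 0.02, from Ube2g1 at -0.15 to Ufc1, the UFM1 E2, at 0.09. The other HERC genes had a median of 0.00, with Herc1 at 0.00, Herc2 at 0.07 and Herc3 at 0.00 beside Herc4. The 20 protease genes had a median of -0.02, from Uchl3 at -0.21 to Usp2 at 0.14.

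Proteins reported to bind ISG15 or USP18, or to act as further ISG15 enzymes, formed a list of 11 genes, all tested, with a median log2 fold change of 0.02. At an unadjusted p under 0.05, 2 were higher and none lower. Itgb2, which pairs with Itgal in the leukocyte integrin LFA-1, a receptor reported for free ISG15, had 20 and 26 counts in NC A and NC B, and 27 and 301 in anti A and anti B, so that its log2 fold change of 2.71 ± 0.97 came from pair B. Stat2, which tethers USP18 to IFNAR2, had 425 and 537 counts against 550 and 727 (0.33 ± 0.12, edgeR unadjusted p = 0.0249, adjusted p = 0.989). The lowest value was that of Usp16, at -0.15. Usp16, with Usp5, Usp14, Usp21 and Usp24, was also on the list of proteases of other modifiers, so the medians of these lists share values.

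Reported ISG15 substrates formed a list of 21 genes, of which 19 were tested, with a median log2 fold change of 0.00. At an unadjusted p under 0.05, 4 were higher and none lower, among them Eif2ak2, Ddx58 and Ifit1, each itself an interferon-stimulated gene. Eif2ak2, which encodes the RNA-activated kinase PKR, stood at 5.79 and 4.98 TPM in NC A and NC B and at 10.9 and 19.1 TPM in anti A and anti B (log2 fold change 1.42 ± 0.27). Ddx58, which encodes the RNA sensor RIG-I, had 67 and 88 against 192 and 358 (1.74 ± 0.28). Ifit1, which binds foreign RNA, had 3 and 3 against 78 and 174 counts. Mx1, a further antiviral substrate, had 3 and 2 counts against 8 and 21 and was under the filter, as was Trp63. The lowest was Ccnd1 at -0.15.

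Interferon is a known inducer of these genes, and its own transcripts were hardly counted. Whether interferon had a part in the differences here was not tested. None of 21 interferon ligand genes passed the filter. Of these, 17 were at 0 in every library, including Ifnb1, and the list summed to 5 and 1 counts in NC A and NC B and to 0 in both anti-miR-124 libraries. A count of 0 allows up to 3 counts in a library, so a low level of interferon transcript was not detectable at this depth. Levels before postnatal day 9 were not measured.

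From receptor to ISGF3, all 7 genes were tested, with a median log2 fold change of 0.16, and 3 were higher at an unadjusted p under 0.05. The receptor genes Ifnar1, at 0.01 ± 0.07, and Ifnar2, at -0.11 ± 0.18, and the kinase genes Jak1, at 0.06 ± 0.07, and Tyk2, at 0.16 ± 0.09, did not pass. Irf9, which encodes the DNA-binding subunit of ISGF3, had 137 and 131 counts in NC A and NC B, and 287 and 501 in anti A and anti B (1.46 ± 0.23, edgeR unadjusted p = 0.000566, adjusted p = 0.671), and Stat2 is given above.

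Genes that flank the 6 on the chromosome were mostly level. Of 12 flanking genes that passed the filter, 11 had a log2 fold change within 0.5 of zero, and the median was -0.02. The share of all genes tested within 0.5 of zero was not computed, so nothing particular to flanking genes is read from this count. Fam212a, which lies 167 bases from Uba7, had 17 and 16 counts in NC A and NC B, and 12 and 13 in anti A and anti B, at -0.47 ± 0.39. Agrn and Perm1 beside Isg15 were at 0.10 and 0.06, Traip beside Uba7 at 0.00, and Coil and Dgke beside Trim25 at -0.04 and -0.07. Ppm1k and Pyurf beside Herc6 were both at -0.08, Timm10 beside Ube2l6 at -0.08, and Tuba8 and Slc6a13 beside Usp18 at 0.17 and 0.41. Serping1, which encodes the C1 inhibitor of complement and lies 23384 bases from Ube2l6, was the exception at 0.95 ± 0.39, with 94 and 82 counts in NC A and NC B, and 104 and 261 in anti A and anti B.

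The genes whose pattern over the 4 libraries was most like the mean of the 6 were found by Euclidean distance between centred log2 CPM. A prior count of 2 was added, which narrows differences at low counts. The closest was Xaf1, at a distance of 0.080, with 10 and 15 counts in NC A and NC B, and 38 and 78 in anti A and anti B. Then came Ifi47 (0.089), Irgm1 (0.160), Ifit3b (0.184) and Rnf213 (0.226). Rnf213 was the most highly counted of them. It had 372 and 423 counts in NC A and NC B, and 1066 and 2487 in anti A and anti B. Ifi47 was the lowest, with 2 and 3 counts in NC A and NC B, and 10 and 24 in anti A and anti B. Its distance therefore depends on the prior count. Against the same mean, Uba7 was the nearest of the 6 at 0.306 and Usp18 the farthest at 2.48, so the mean describes no single member closely. With 4 libraries the distance is a description of likeness only.

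Markers of other cells moved with the libraries as well. All 20 genes of a microglia and macrophage list passed the filter and none was at 0. Their summed CPM were 193 and 146 in NC A and NC B and 178 and 411 in anti A and anti B, with a median log2 ratio of -0.14 in pair A and 1.65 in pair B. A list of reactive gliosis genes, 12 of 13 tested, summed to 186 and 108 in the NC libraries and to 119 and 390 in the anti-miR-124 libraries, with median log2 ratios of -0.31 and 2.23. In pair A both lists summed lower in the anti-miR-124 library, and both sums in anti A were above those in NC B. In the same pair Isg15, Uba7, Ube2l6 and Usp18 were 2.26 to 34.9-fold higher in the anti-miR-124 library. Trim25 was 1.23-fold higher, and Herc6 was 1.05-fold higher. Without anti B the log2 fold changes were 3.79 for Usp18, 2.14 for Isg15, 2.05 for Uba7 and 1.03 for Ube2l6, beside the values for Trim25 and Herc6 above. The part of microglia and gliosis in the differences of either pair was not tested.

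**Figure D5:**
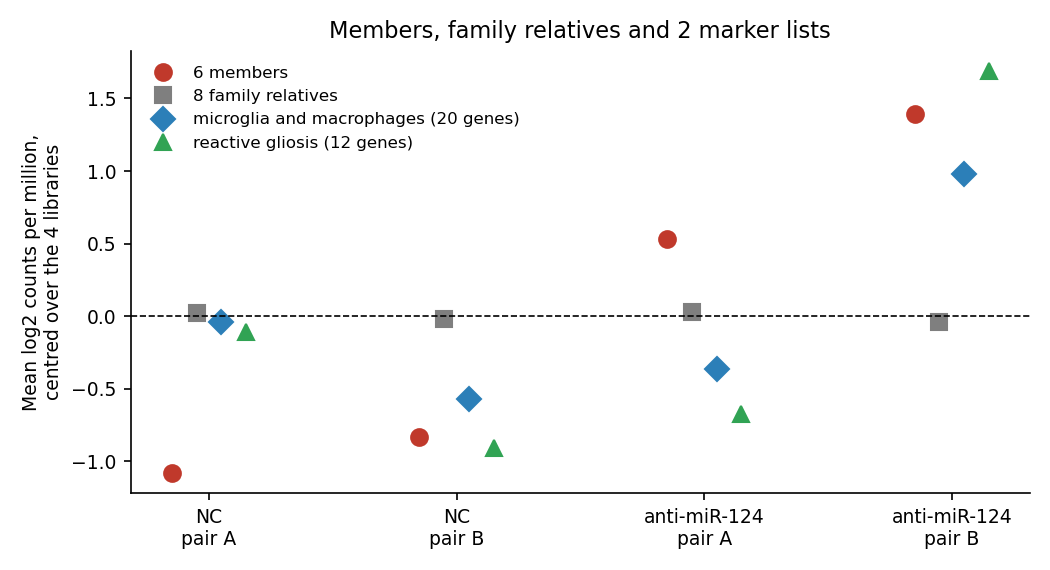
Mean log2 CPM, centred over the 4 libraries, for the 6 genes of the ISG15 system, 8 family relatives and the microglia and gliosis lists. The 6 genes were at -1.08 and -0.83 in the NC libraries and at 0.53 and 1.39 in the anti-miR-124 libraries, while the marker lists were above their mean only in anti B.

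Of 15 blood leukocyte markers 1 passed the filter, and Ly6c2, Cd3e, Ms4a1 and Ncr1 were at 0 in every library. The list summed to 2.05 and 1.66 CPM in the NC libraries and to 1.35 and 3.08 in the anti-miR-124 libraries. Ccr2, a chemokine receptor of monocytes, had 0 and 2 counts against 0 and 25. Vascular genes (11 of 11 tested) had a median log2 fold change of 0.03, and pigment epithelium genes (7 of 8) had one of 0.52, at 0.78 in pair A and 0.12 in pair B.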

How the data were processed

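Whole-retina RNA was sequenced in 2 anti-miR-124 and 2 NC libraries. The submitters' processing notes name HISAT2 and mm9, yet the positions deposited for the 6 genes lie at GRCm38 loci, and GRCm38 coordinates are used here. Further steps are not given in the sources used here. The authors deposited raw counts and RPKM per gene. The 4 RPKM columns were not used. TPM was computed from counts and lengths.

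The counts were tested with edgeR 4.0.16 (R 4.3.3): quasi-likelihood F test, two-sided, TMM scaling, filterByExpr, no block, Benjamini-Hochberg adjustment over 17766 genes. DESeq2 1.42.0 (Wald test) was an alternative, as were other scalings, filters and prior counts, a replicate block, leaving out lens genes and leaving out each library. Labels place 2 libraries in each group but do not say which column is which replicate. The p-values measure the spread between the libraries of a group, whether or not these were independent pools. The smallest p of an exact permutation test of 2 against 2 is 0.333, so none was used. No libraries were duplicates (chi-square per degree of freedom at least 3.695). That lowest value was between anti A and NC B, which belong to opposite groups. Within the groups it was 10.1 for anti A and anti B, and 27.5 for NC A and NC B. On simulated data for this comparison, over 17479 genes, 99.0% of 4-fold and 57.3% of 2-fold changes were called, with 6 wrong among 159 calls. The simulation gave every gene the same spread between libraries (biological coefficient of variation 0.145). These shares therefore do not hold for genes that vary more, and they do not give the power in the real data. Intervals of count ratios are exact Clopper-Pearson intervals at 95%, scaled by library size.

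The 6 genes, the gene lists and the comparison were chosen with earlier results of these data known. Named genes were the 6, the extremes of each list, every gene of a list of 4 or fewer, set relatives, flanking genes that passed the filter, and the 5 closest profiles; other genes were named after their values were seen. Some genes of these lists are not reported here.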

Additional observations from a re-analysis of the deposited data

How the results depend on the processing

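The median log2 fold change of the 6 genes stayed between 1.54 (without anti B) and 2.30 (without anti A) over all alternatives, against 1.84, and was 1.80 with the replicate block. All 6 genes were higher in both pairs on the CPM and on the TPM scale, and both anti-miR-124 libraries were above both NC libraries in all 6. Over all genes tested these shares were 22.8% and 16.5% in CPM. For a given gene the scales differ only by a factor per library, and the genes were picked on this direction, so nothing is read from the agreement. These counts were not run under the other alternatives. Usp18 without NC B, at 5.69, was the only value of a single gene that moved by more than the spread between pairs. With edgeR, genes with an adjusted p under 0.05 numbered 0 as reported and 0 with the replicate block, 379 with no filter on low counts and 36 with DESeq2. They ranged from 0 to 256 on leaving out 1 library (256 without anti A, 57 without NC B and 12 without anti B), where the lone library is assumed to vary like the other group. Genes with an unadjusted p under 0.05 numbered 694 as reported, 1577 with no filter and 376 with the replicate block, and 333 to 1893 on leaving out 1 library. The cause of these changes was not tested. Deviations of same-numbered libraries correlated at -0.162, so the numbers do not establish a pairing. The crossed pairing, added after seeing the data, gave 160 genes at an adjusted p under 0.05 and 1306 at an unadjusted p under 0.05. In the NC libraries, 3 to 13 counts of Isg15, Uba7 and Usp18 limit the precision of their ratios.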
